A study of Mus musculus with 12 samples.

Results

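The clustered protocadherins are adhesion molecules of neurons encoded by tandem arrays of genes, the alpha, beta and gamma clusters, which lie one after the other on mouse chromosome 18. They were taken here as the protein-coding genes whose symbol starts with Pcdha, Pcdhb or Pcdhg and that had at least 10 estimated counts in total over 11 mice. The rule gave 57 genes of the 26963 genes that reached the same count, 14 in the alpha, 22 in the beta and 21 in the gamma cluster. Pcdhgb8, with 1165 counts in total, was left out because the annotation lists it as a polymorphic pseudogene. The members with the fewest counts were Pcdhb1 (86 in total) and Pcdhb2 (408), and no protein-coding record of the clusters fell under the minimum.

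Bilateral amygdalae of 12 female C57/BL6 mice, an inbred strain, were sequenced as 1 stranded mRNA library per mouse, with single-end reads of 75 bp. Each mouse had been through a light/dark box, an elevated plus maze and a social interaction test. Of the 12 mice, 3 were labelled less anxious (mice 3, 7 and 12), 4 anxious (mice 1, 4, 8 and 11) and 4 more anxious (mice 2, 6, 9 and 10), and mouse 5, an outlier in the study's own principal component analysis, has no group. The study cut these groups from the second principal component (PC2) of the same expression data, so they are not a grouping independent of expression, and mouse 6, labelled more anxious, had the longest time on the open arms of all 11 mice (29.2%, against 2.33 to 4.30% in the other more anxious mice).

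Each alpha or gamma gene supplies a large variable exon with its own promoter, which is spliced to a set of constant exons that all genes of its cluster share, whereas a beta gene is essentially a single exon. In most neurons the promoters are chosen at random, with the help of the insulator protein CTCF, cohesin and DNA methylation. Single neurons thus show different sets of isoforms, and these sets act in self-recognition and self-avoidance of branches. The C-type members at the end of the alpha and gamma arrays (Pcdhac1, Pcdhac2, Pcdhgc3, Pcdhgc4 and Pcdhgc5) are instead used by whole classes of neurons. Bulk tissue averages over cells, so random choice in single cells cannot be seen in these data, and fewer cells with an isoform and less RNA per cell cannot be told apart.

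In the GENCODE M21 annotation of the GRCm38 build, all on the plus strand of chromosome 18, the alpha genes lie between 36930184 and 37187661, the beta genes between 37264938 and 37524479 and the gamma genes between 37661793 and 37841873. The alpha constant exons measure 59, 89 and 2712 bases and those of gamma 59, 89 and 1968 bases. A read from these exons fits every gene of its cluster, so the split of such reads among members is an estimate of the counting software. The gene model of Pcdhgc4 includes a transcript of 2272 bases that is shared constant exon for 93.1% of its length, with 156 bases of its own, and such short transcripts were also annotated for Pcdhgc5 (75.2% shared) and Pcdha11 (67.2% shared). Counts of these genes are less certain than their size alone implies. No sequence of these genes is printed.

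Library totals ran from 31745630 to 45142355 estimated counts in the 11 mice, and the members held between 0.0901% and 0.109% of them. The tissue carried RNA of all 9 marker genes fixed for amygdala nuclei, the lowest of them at a mean of 5.48 CPM (estimated counts scaled to the library total). Marker genes of other cells leaned with the groups. All 7 astrocyte, 7 oligodendrocyte, 6 microglial and 6 endothelial markers had a negative log2 fold change in more against less anxious mice (median -0.26, -0.12, -0.19 and -0.37), as had 6 of 7 choroid plexus genes, 3 of 4 oligodendrocyte precursor genes and 8 of the 9 amygdala nucleus genes. Positive values were found for 5 of 6 glutamatergic markers (median 0.38), 7 of 8 general neuronal, 3 of 8 GABAergic and 2 of 5 brainstem neuron genes. The summed endothelial markers lay between 155 and 205 CPM in less anxious and between 111 and 138 CPM in more anxious mice, and the summed general neuronal markers between 7205 and 7592 CPM and between 7153 and 8360 CPM. Of the 6 pituitary genes, 4 had a negative log2 fold change in more against less anxious mice (median -1.83). The 6 genes summed to at most 3.88 CPM in less and 1.95 CPM in more anxious mice and reached 54.1 CPM in 1 anxious mouse. None of these markers passed an adjusted p of 0.05 across the 3 groups in edgeR's quasi-likelihood F-test. Unadjusted, 4 of 8 general neuronal, 3 of 6 glutamatergic and 3 of 6 endothelial markers had a p under 0.05 in more against less anxious mice. So had 3 of 4 oligodendrocyte precursor, 2 of 7 astrocyte and 2 of 7 choroid plexus genes, against 8.84% of all genes. The pituitary list gave 0 there and each other list 1. Across the 3 groups, 4 of 6 pituitary genes passed unadjusted (background 6.35%). The part of such cells in the results on the protocadherins was not tested.

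The levels of the members were strongly uneven, with C-type genes in the first places of the gamma cluster and 1 of them, Pcdhac2, in the first place of alpha. On the scale of CPM per kb of gene model, which allows levels of different genes to be compared, Pcdhgc4 stood at 60.5 ± 6.61 (SD, n = 11 mice), Pcdhgc5 at 13.8 ± 3.38 and Pcdhgc3 at 9.34 ± 1.39. Pcdhgc4, whose protein is known to be needed for survival of cortical interneurons, alone made up 49.8% ± 5.37 of the summed gamma level. The C-type genes together took 68.6% ± 3.94 of gamma (range over mice 61.6 to 75.0%). Because Pcdhgc4 has the short transcript of mostly shared exon described above, the share was also computed without it, and the other C-types then took 37.5% of the remaining gamma level.

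The gamma A and gamma B members, the alternate isoforms of that cluster, were far lower than the C-types and more even. Their levels ran from 0.766 (Pcdhgb4) to 4.19 CPM per kb (Pcdhga11), with a median of 2.10 over 18 members. The lowest gamma C-type value in any mouse, 7.88 CPM per kb for Pcdhgc3, lay above the highest alternate value, 5.79 CPM per kb for Pcdhga11, as the plot of levels by array order shows.

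**Figure D1:**
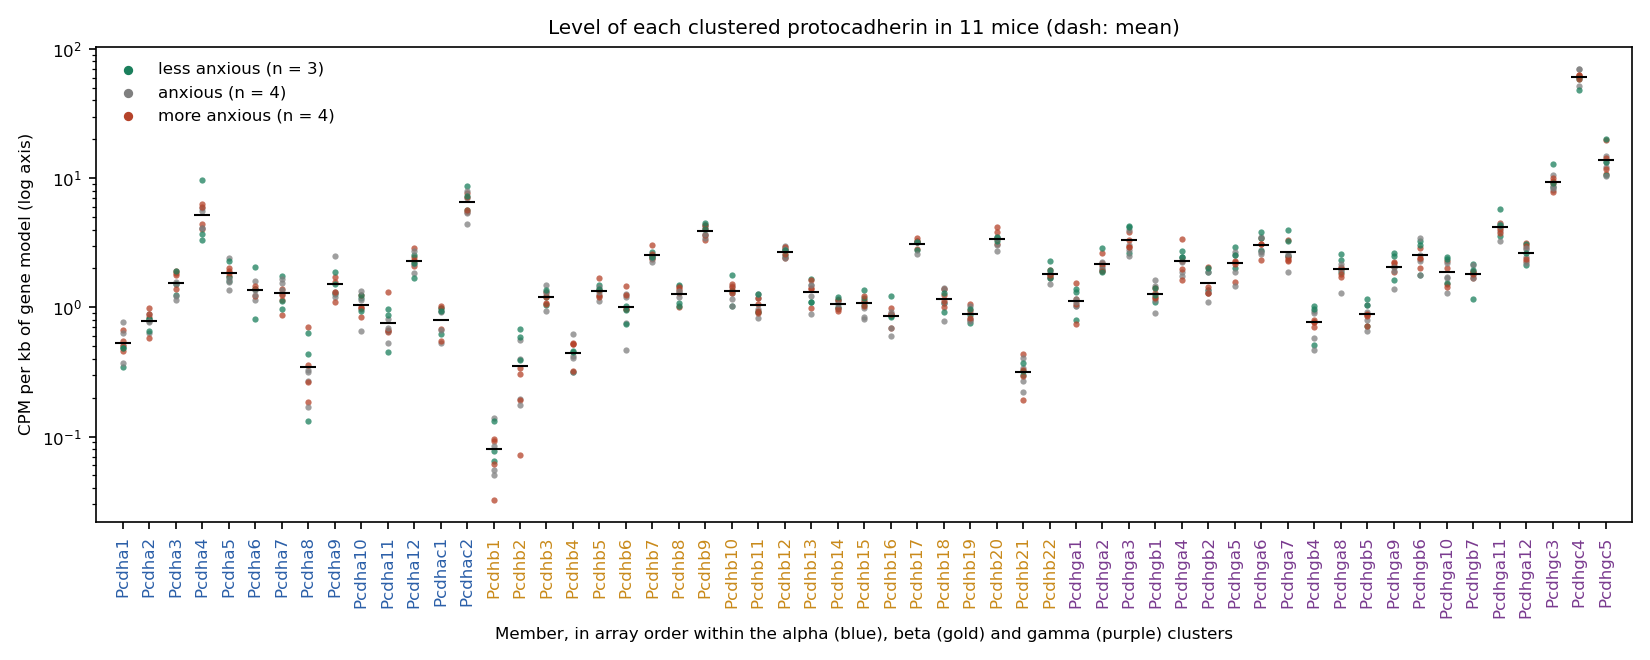
Level of the 57 members on a log axis, in CPM per kb of gene model, in array order, with 1 point per mouse colored by group and a dash at the mean of the 11 mice. Pcdhgc4 has the highest mean level (60.5) and Pcdhb1 the lowest (0.0804).

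In the alpha cluster, Pcdhac2, a C-type isoform typical of serotonergic neurons but also of many other neurons, had the highest level (6.56 ± 1.33 CPM per kb, 25.3% ± 4.07 of alpha). Pcdhac1 was much lower (0.802 ± 0.191), so the C-types took 28.3% ± 4.55 of alpha in all. Pcdha4 was the leading alternate isoform (5.17 ± 1.78, 20.1% ± 6.70 of alpha), followed by Pcdha12 (2.29 ± 0.355). The remaining alternate alpha members lay between 0.345 (Pcdha8) and 1.83 CPM per kb (Pcdha5).

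The beta cluster, which has no C-type genes and no constant exons, was led by Pcdhb9 (3.91 ± 0.395 CPM per kb), Pcdhb20 (3.40 ± 0.391) and Pcdhb17 (3.10 ± 0.251). These top levels differed by less than the sum of their SDs between neighbors. The lowest member, Pcdhb1 at the start of the array, had between 3 and 13 counts per mouse and a mean of 0.0804 CPM per kb. The levels within beta thus spanned 48.7-fold, against 19.0-fold within alpha and 79.0-fold within gamma.

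The summed level of each cluster differed little between the groups. The alpha members summed to 155, 150.4 and 148 CPM in the less anxious mice 3, 7 and 12, to 152, 129, 123 and 154 CPM in the anxious mice 1, 4, 8 and 11, and to 142, 151, 151 and 142 CPM in the more anxious mice 2, 6, 9 and 10. The beta sums ran from 131 to 141 CPM in less anxious, from 113 to 136 CPM in anxious and from 122 to 144 CPM in more anxious mice. All groups overlapped in both clusters.

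The gamma sums were 618, 813 and 646 CPM in the less anxious, 676, 669, 733 and 652 CPM in the anxious and 651, 780.2, 657 and 684 CPM in the more anxious mice. Mice 7 and 6 had the highest sums and belong to opposite groups. The log2 ratio of the group means, more over less anxious, was -0.04 for alpha, -0.02 for beta and 0.00 for gamma, against pooled SDs within groups of 0.11, 0.10 and 0.14 on the log2 scale. As sums over members, these were described without a test.

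**Figure D2:**
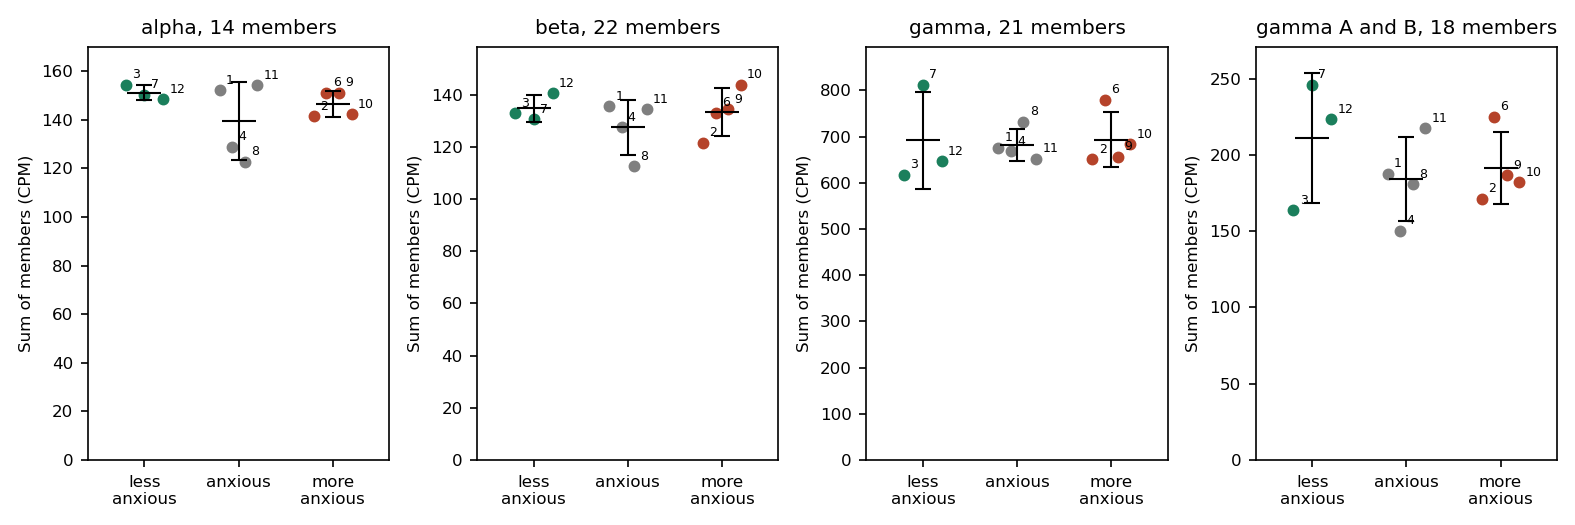
Sum of CPM over the members of each cluster, and over the gamma A and B members alone, in each mouse (numbered points) by group, with the group mean and SD as bars and the y axes starting at 0. The groups overlap in all 4 panels.

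The gamma sum was weighted to Pcdhgc4, and the alternate members gave another value alone. The summed gamma A and B members stood at 164, 246 and 223 CPM in the less anxious mice 3, 7 and 12 and at 171, 225, 187 and 182 CPM in the more anxious mice 2, 6, 9 and 10. The log2 ratio of their means was -0.14, while that of the gamma C-types was 0.06. The alternate sum of mouse 3 was lower than in all of the more anxious mice, so the groups overlapped.

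No member differed between the 3 groups at an adjusted p under 0.05 in edgeR's quasi-likelihood F-test, adjusted after Benjamini and Hochberg over the 26963 genes and the first principal component as a covariate. This held for the 3-group test (0.00742% of all genes called), for more against less anxious (0.0445%), anxious against less anxious (0.00371%) and more against anxious (0%). At an unadjusted p under 0.05, 2 of 57 members passed the 3-group test and 2 passed more against less anxious, while 6.35% and 8.84% of all genes did. In anxious against less anxious 1 member passed, Pcdhga7, against a background of 4.74%, and in more against anxious 1 member, Pcdha3, against 4.57%. DESeq2 called 0 members by adjusted p in the same comparisons, and 2, 2, 1 and 1 at an unadjusted p under 0.05. With all 11 mice, the shares of members at an unadjusted p under 0.05 thus lay below those of all genes in these 4 comparisons. This turned in anxious against less anxious mice when 1 mouse was left out: 7 of 57 members, against 4.6% of all genes, passed without the anxious mouse 11 and 6 of 57, against 6.76%, without the less anxious mouse 3, while 0 passed without the less anxious mouse 7.

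For members with a mean of at least 1 CPM, the SE of the log2 fold change ran from 0.11 to 0.56, with a median of 0.19. The precision of single members was therefore limited with 3 and 4 mice, and small differences were not detectable.

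Pcdhga7, a gamma A isoform, had the smallest p of the 3-group test. Its level was 13.1, 20.7 and 16.9 CPM in the less anxious mice, 13.1, 9.80, 13.1 and 13.6 CPM in the anxious and 11.9, 17.2, 12.7 and 12.1 CPM in the more anxious mice. The more anxious mice lay below the less anxious ones except for mouse 6, which had the second highest level of all. The log2 fold change was -0.37 (SE 0.16) in more against less anxious, with an adjusted p of 0.533, and -0.48 (SE 0.16) in anxious against less anxious, with an adjusted p of 0.987 in edgeR's quasi-likelihood F-test.

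Pcdhb2, a beta isoform of low level (9 to 69 counts per mouse), was the only member whose less and more anxious mice did not overlap. It stood at 1.92, 1.66 and 1.09 CPM in the less anxious mice and at 0.202, 0.539, 0.952 and 0.862 CPM in the more anxious mice, with 1.58, 0.552, 0.491 and 1.12 CPM in the anxious mice. Of all genes, 3.91% had every more anxious mouse below every less anxious one and 4.49% the reverse, against 1 and 0 of the 57 members. The fold change of Pcdhb2 was -1.22 on the log2 scale (SE 0.42, unadjusted p 0.013, adjusted p 0.413 in edgeR's quasi-likelihood F-test), and -0.58 without mouse 7. Without that mouse no member passed an unadjusted p of 0.05 in the 3-group test or in more against less anxious mice.

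The other members with the smallest p-values across the 3 groups were Pcdha3 (p 0.13), Pcdhb15 (p 0.178) and Pcdhga4 (p 0.199), all with adjusted p-values of at least 0.87 in edgeR's quasi-likelihood F-test. Among members with a mean of at least 1 CPM, the largest positive log2 fold change within each cluster in more against less anxious mice was 0.35 (SE 0.25) for Pcdha1 in alpha, 0.32 (SE 0.29) for Pcdhb6 in beta and 0.10 (SE 0.11) for Pcdhgc4 in gamma. The most negative of each cluster were -0.15 (SE 0.22) for Pcdhac2, -0.16 (SE 0.13) for Pcdhb9 and -0.37 for Pcdhga7 given above. Apart from Pcdhga7, these values were less than 1.5 times their SE, as in the plot of log2 fold changes.

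None of the leading members by level was called as different between groups. Pcdhgc4 stood at 326, 342 and 271 CPM in the less anxious, 338, 391, 395 and 287 CPM in the anxious and 346, 350.1, 329.7 and 350.0 CPM in the more anxious mice, with its lowest level in the less anxious mouse 12 and overlap of all groups. The log2 fold changes of the other C-types in more against less anxious mice were -0.06 (SE 0.27) for Pcdhac1, -0.18 (SE 0.13) for Pcdhgc3 and -0.13 (SE 0.18) for Pcdhgc5. Leaving out mouse 7 turned the sign of Pcdhac1, Pcdhac2, Pcdhgc3 and Pcdhgc5 (to 0.14, 0.09, 0.03 and 0.03). Those of the leading beta and alpha alternates were 0.13 (SE 0.12) for Pcdhb20, 0.08 (SE 0.12) for Pcdhb17 and 0.18 (SE 0.17) for Pcdha12.

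The signs of the fold changes were uneven among clusters in the comparisons with less anxious mice and similar among them in more against anxious mice. In more against less anxious mice 17 of 21 gamma members had a negative log2 fold change (median -0.17), whereas alpha had 6 of 14 (median 0.03) and beta 11 of 22 (median -0.01), and the median of all genes tested was 0.00. In anxious against less anxious mice 18 of 21 gamma members were negative (median -0.21), as were 8 of 14 alpha (median -0.09) and 15 of 22 beta members (median -0.05). In more against anxious mice most members of each cluster were positive, with 15 of 21 in gamma (median 0.05), 10 of 14 in alpha (median 0.08) and 16 of 22 in beta (median 0.05). Each pair of these comparisons shares a group of mice, and the gamma members share constant exon reads and vary together, so the members are no independent evidence of direction.

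**Figure D3:**
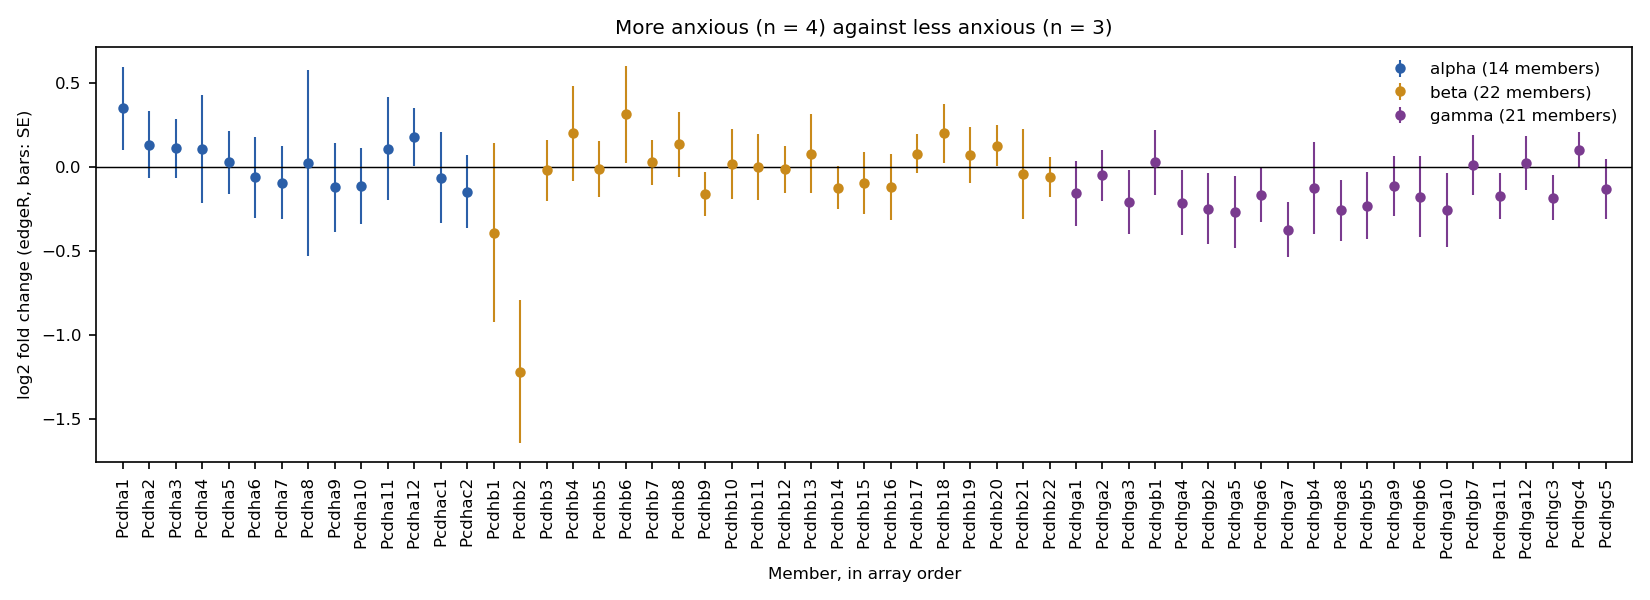
Log2 fold change of each member in more against less anxious mice (edgeR), with SE bars, in array order and colored by cluster. Most gamma members (17 of 21) lie below 0, and Pcdhb2 (-1.22) is the farthest from 0.

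The behavior measures, unlike the groups, were taken independently of expression. Each of 7 measures was fitted as a number over the 11 mice (10 for the ratio at 3 min, which mouse 4 lacks), and a slope is the log2 change of a member per SD of the measure. No member passed an adjusted p of 0.05 in edgeR's quasi-likelihood F-test for any measure. The share of all genes called was 0.00742% for time in light, 0% each for distance in light, time on the open arms and total entries, and 0.0150%, 0.0111% and 0.0223% for the ratio of time in the box beside an unfamiliar mouse to time in the zone around it at 3, 5 and 10 min. DESeq2 called 1 member, Pcdhga1 for the ratio at 3 min, where it called 1.05% of the genes it gave an adjusted p, and 0 members for the other measures.

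At an unadjusted p under 0.05, gamma members came up most often for time on the open arms, total entries and the ratio at 3 min. Time on the open arms gave 9 of 57 members, against 5.84% of all genes. Of these, 8 were gamma members, all with a positive slope, which 2.73% of all genes had. Total entries into the arms gave 7 members (background 6.97%), 6 of them gamma members with a positive slope (background 3.54%). The box to zone ratio at 3 min gave 11 members (background 7.65%), 10 of them gamma members with a negative slope (background 3.11%).

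The other measures gave fewer. Time in light gave 2 members (background 3.55%), distance in light 0 (background 5.80%), and the ratios at 5 and 10 min 4 each (backgrounds 6.56% and 8.05%), of which 1 each was a gamma member. DESeq2 gave 9, 7, 11, 2, 3, 4 and 4 members at an unadjusted p under 0.05, in the order in which the measures are named in these 2 paragraphs. All 18 gamma A and B members had a positive slope on time on the open arms (median 0.11) and a negative one on the ratio at 3 min (median -0.14), while Pcdhgc4 stood at -0.04 (SE 0.05) and 0.02 (SE 0.05). The beta members had medians of 0.01 and 0.00 and the alpha members of 0.01 and -0.02. One-sided signs were not limited to gamma. On total entries, 18 of 21 gamma (median 0.10), 20 of 22 beta (median 0.04) and 10 of 14 alpha members (median 0.04) had a positive slope. On time in light, 19 of 21 gamma, 16 of 22 beta and 9 of 14 alpha members did, and on distance in light 19, 17 and 10.

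The counts of gamma members at an unadjusted p under 0.05 rested on few mice. Gamma members share constant exon reads and vary together, so they are not independent of each other and their counts are no measure of excess over all genes. Time on the open arms and total entries also come from the same maze test. Without mouse 7, 4 gamma members for time on the open arms and 2 for the ratio at 3 min were left at an unadjusted p under 0.05, and without mouse 6, 4 for the open arms and 3 for total entries. Without mouse 12, 5 and 4 gamma members were left for the open arms and total entries, and without mouse 2, 4 for total entries. Leaving out mouse 9 gave 13 gamma members for the ratio at 3 min.

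**Figure D4:**
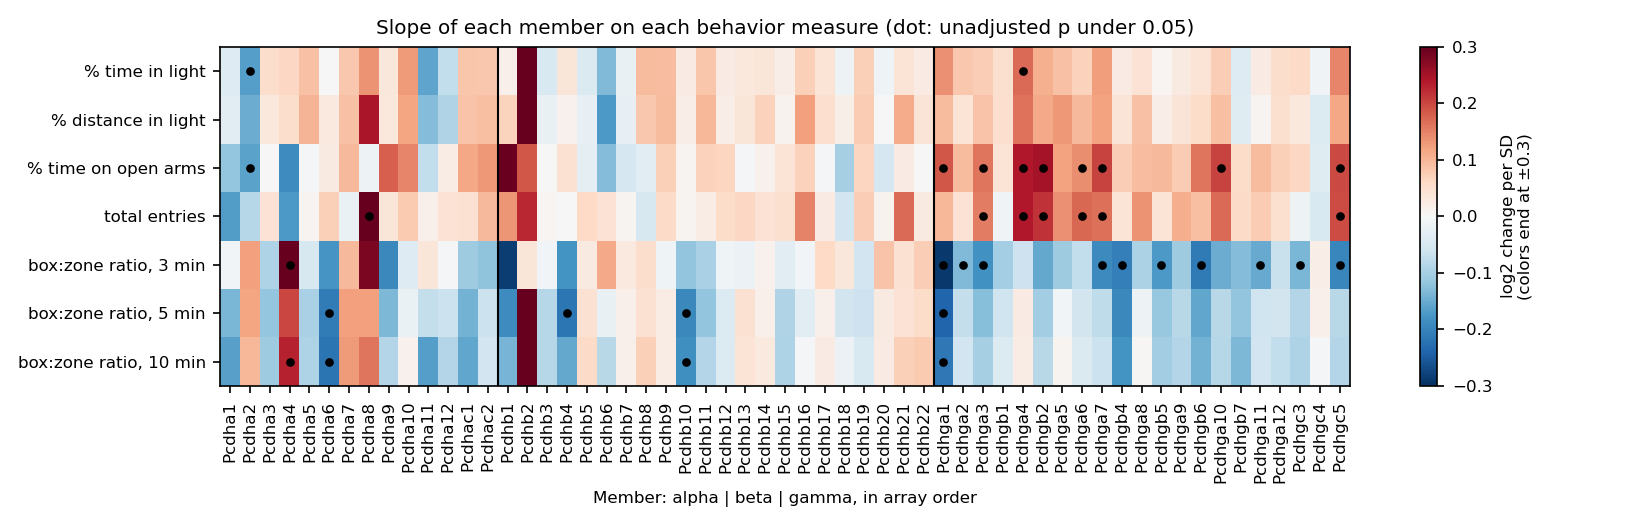
Slope of each of the 57 members (columns, in array order, with lines between the clusters) on each of 7 behavior measures (rows), as color in log2 per SD of the measure, with a dot where the unadjusted p is under 0.05. The gamma columns are mostly red for time on the open arms (20 of 21 positive) and mostly blue for the ratio at 3 min (20 of 21 negative).

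Pcdhga1, the gamma A isoform at the start of its array, had the smallest p of all members for all 3 box to zone ratios. In mice 7, 12, 6, 2 and 1, with ratios at 3 min of 0.236, 0.691, 0.797, 0.801 and 0.943, it stood at 7.50, 7.01, 8.21, 6.28 and 5.46 CPM. In mice 11, 8, 10, 3 and 9, with ratios of 0.989, 1.15, 1.45, 1.70 and 1.84, it stood at 5.92, 5.48, 5.65, 4.31 and 3.97 CPM. The level was thus highest in the mice with low ratios and lowest in mice 3 and 9, the highest ratios. The slope was -0.29 (SE 0.07) per SD, with an unadjusted p of 0.00108 and an adjusted p of 0.28 in edgeR's quasi-likelihood F-test, and an adjusted p of 0.0105 by DESeq2. At 5 and 10 min the slopes were -0.24 (SE 0.07) and -0.21 (SE 0.08), with adjusted p-values of 0.582 and 0.524 by edgeR.

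Pcdhga4, another gamma A isoform, had the smallest p for both light measures, time on the open arms and total entries. Of the 4727 bases of its gene model, 1570 are its own and 2116 are constant exon. The rest also lies in another gamma gene model, so its counts depend on how reads of more than the constant exons were split. In mice 2, 10, 9, 1, 8 and 4, which spent 2.33, 3.25, 4.30, 6.73, 14.7 and 16.8% of the time on the open arms, it stood at 7.73, 9.29, 10.7, 8.19, 11.3 and 8.83 CPM. In mice 3, 11, 7, 12 and 6, with 17.5, 20.1, 24.5, 24.6 and 29.2%, it stood at 11.6, 10.7, 12.8, 11.7 and 15.9 CPM. Mouse 6, with the longest time, had the highest level and mouse 2, with the shortest, the lowest. The slope was 0.24 (SE 0.06) per SD for the open arms (unadjusted p 0.00142, adjusted p 0.465 in edgeR's quasi-likelihood F-test) and 0.24 (SE 0.07) for total entries (adjusted p 0.576). For time and distance in light it was 0.17 (SE 0.07, adjusted p 1.0) and 0.16 (SE 0.08, adjusted p 0.848).

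Pcdha4 leaned the other way from the gamma members. It stood at 55.3, 19.1 and 21.1 CPM in the less anxious, 32.1, 33.8, 23.9 and 23.6 CPM in the anxious and 36.2, 23.4, 25.3 and 34.2 CPM in the more anxious mice. Mouse 3 was the highest and mice 7 and 12 of the same group the lowest, so that its spread within 1 group was as wide as over all mice. Its slope on the ratio at 3 min was 0.30 (SE 0.12, unadjusted p 0.0242, adjusted p 0.561 in edgeR's quasi-likelihood F-test), and its log2 fold change in more against less anxious mice was 0.11 (SE 0.32), which changed sign without the covariate.

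The spread between mice was larger than counting error for all 57 members, and more than 2 times as large for 42 of them. The biological coefficient of variation is edgeR's estimate of the spread beyond counting that the groups and the first principal component leave. Its median was 0.193 over the members and 0.179 over the 19734 genes within the range of their mean CPM. The value that edgeR's trend gives for a gene's level had medians of 0.206 and 0.193 in these 2 sets. Below that trend lay 41 of the 57 members and 15057 of the 19734 genes. The median biological coefficient of variation was 0.229 in alpha, 0.188 in beta and 0.184 in gamma. Among well measured members the widest were Pcdha4 (CV 34.5% over mice, against 2.98% from counting) and Pcdha8 (CV 53.4% against 12.1%), and the narrowest were Pcdhb12 (CV 8.01%) and Pcdhb17 (CV 8.10%).

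The gamma members varied together over the mice, whereas the alpha and beta members hardly did. The median Pearson r of log2 CPM over the 11 mice was 0.62 for the 210 pairs within gamma, 0.22 for the 231 pairs within beta and 0.09 for the 91 pairs within alpha. Gamma members and genes in the same CPM range had a median r of -0.01. These correlations are descriptions, since all members come from the same 11 libraries and the gamma and alpha members each share constant exon reads within their cluster.

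Pcdhgc4 stood apart from the other gamma members. Its r with the gamma A and B members had a median of -0.53 and was positive for 1 of 18, while Pcdhgc5 and Pcdhgc3 had medians of 0.64 and 0.45. Pcdhgc4 has the short transcript that is shared constant exon for 93.1% of its length. The part of the split of shared reads in its r was not tested. The highest r of any pair was 0.95, between the gamma B members Pcdhgb5 and Pcdhgb6, which have Pcdhga9 between them in the array.

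Pcdhac2, like the other alpha C-type Pcdhac1, had higher median correlations with the gamma alternates than with those of its own cluster. Its level was 33.2, 51.1 and 42.5 CPM in the less anxious mice 3, 7 and 12, 41.0, 25.8, 31.5 and 46.5 CPM in the anxious mice 1, 4, 8 and 11, and 32.1, 45.5, 41.9 and 33.5 CPM in the more anxious mice 2, 6, 9 and 10. The lowest value was that of mouse 4 and the highest that of mouse 7, which also had the lowest and the highest gamma A and B sum (150.4 and 246 CPM). The median r of Pcdhac2 was 0.83 with the 18 gamma A and B members (positive for all 18) and 0.36 with the 12 alternate alpha members, although it shares no exon with gamma. For Pcdhac1 these medians were 0.60 (positive for all 18) and 0.37, and its r with Pcdhac2 was 0.82. Pcdha4 had a median r of -0.67 with the gamma A and B members, down to -0.90 with Pcdhgb7.

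**Figure D5:**
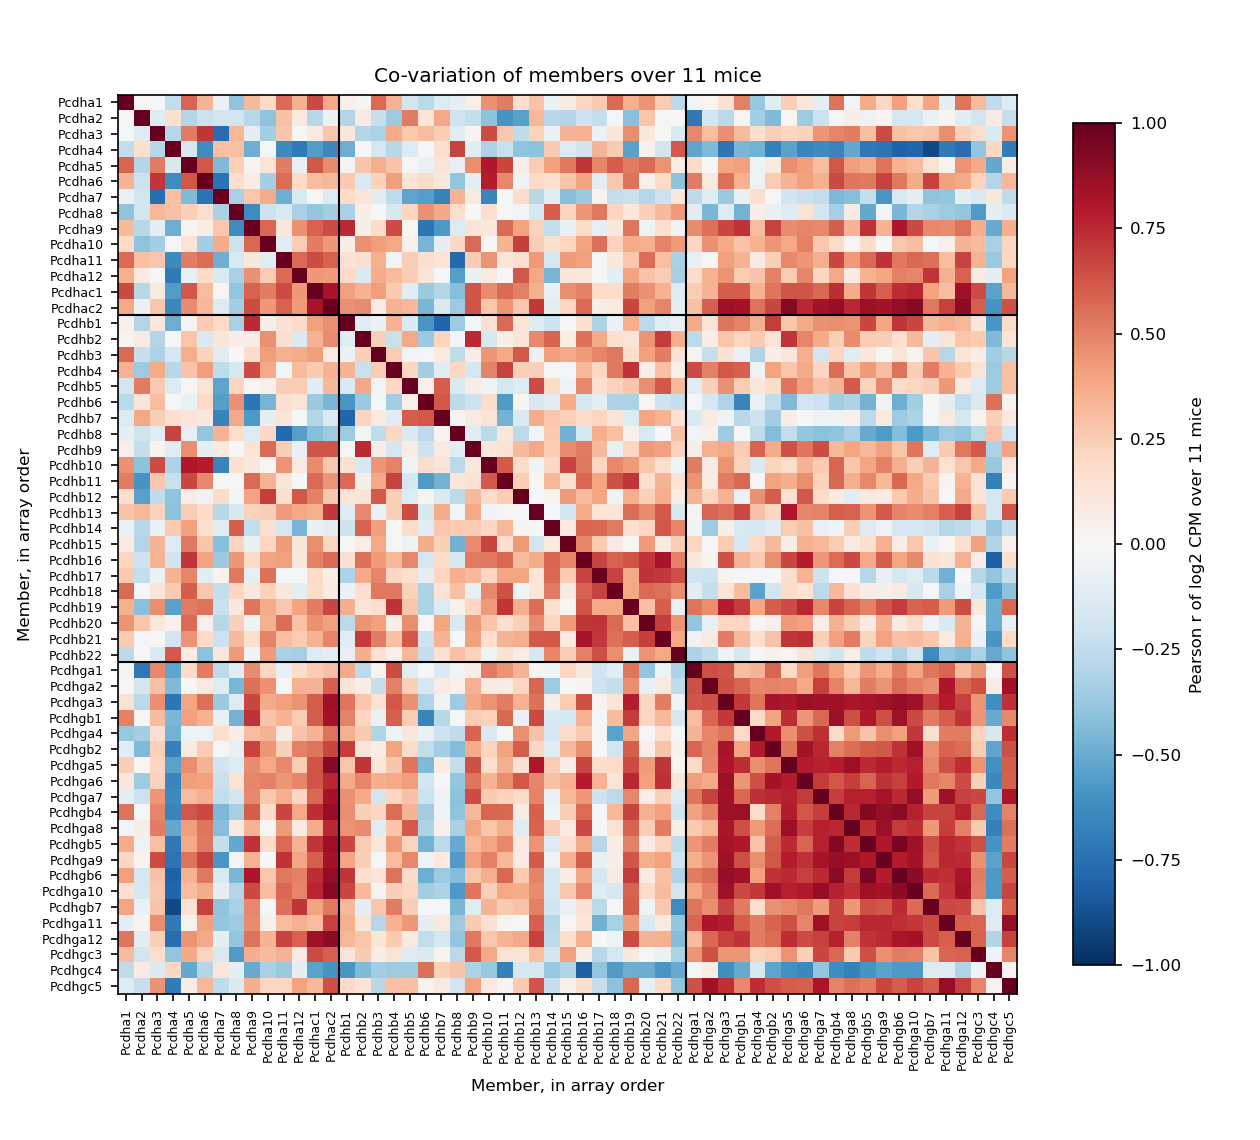
Pearson r of log2 CPM over 11 mice for each pair of members, in array order, with lines between the clusters. The gamma block is mostly red (median r 0.62 over 210 pairs) and the column of Pcdhgc4 is mostly blue there. Pcdhac2 and, at lower r, Pcdhac1 go with the gamma block, and Pcdha4 stands against it.

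Genes of the wider system were taken from lists of 11 insulator and cohesin genes, 18 cytoplasmic partners and proteases, 12 protocadherins outside the clusters and 8 genes beside or between the arrays. None of their genes passed an adjusted p of 0.05 across the 3 groups in edgeR's quasi-likelihood F-test. At an unadjusted p under 0.05 across the 3 groups they gave 0, 1, 2 and 0 genes, against 6.35% of all genes. In more against less anxious mice they gave 2, 1, 1 and 0 genes, against 8.84%. In that comparison 10 of 11, 12 of 18, 9 of 12 and 3 of 8 genes had a negative log2 fold change, against 13346 of the 26963 genes tested. The medians of their log2 fold changes in more against less anxious mice were -0.08, -0.03, -0.22 and 0.06.

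The gene with the smallest p of these lists was Psen2, a catalytic subunit of gamma-secretase, the protease that cuts the membrane stub of protocadherins. It stood at 10.2, 14.6 and 10.4 CPM in the less anxious, 13.4, 15.3, 13.4 and 11.5 CPM in the anxious and 19.9, 17.98, 16.7 and 17.97 CPM in the more anxious mice. The more anxious mice lay above all others. Of all genes, 4.49% had every more anxious mouse above every less anxious one. The log2 fold change of Psen2 was 0.59 (SE 0.13) against less anxious mice. Its adjusted p-values were 0.153 in that comparison and 0.312 across the 3 groups in edgeR's quasi-likelihood F-test.

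Pcdh7, a protocadherin outside the clusters, had the smallest p of its list. It stood at 125 to 159.9 CPM in less and at 96.8 to 117 CPM in more anxious mice, without overlap of these groups. Of all genes, 3.91% had every more anxious mouse below every less anxious one. The log2 fold change of Pcdh7 was -0.44 (SE 0.12, adjusted p 0.282 in edgeR's quasi-likelihood F-test). The smallest p-values of the other lists were those of Stag1, a cohesin subunit (p 0.0863), and Taf7, a transcription factor subunit whose gene lies between the beta and gamma arrays (p 0.0769), with adjusted p-values of 0.838 and 0.828 across the 3 groups by edgeR. Ctcf itself had a log2 fold change of -0.09 (SE 0.11).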

How the data were processed

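After trimming with cutadapt, the authors used STAR alignments to mm10 for quality control and Salmon to quantify transcripts, which tximport collapsed into gene values. The authors deposited whole-number estimated counts for 47729 genes and 12 mice, without normalization. Annotation release, tool versions and whether the counting used the strand are not given in the sources used here. Gene names, coordinates and merged exon lengths came from GENCODE M21 (GRCm38), which had an entry for 47310 IDs (99.12%). It names 2 records Pcdha11, of which the first was called Pcdha10 by its RefSeq position.

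All 12 columns were used, with mouse 5 outside the group comparisons. Counts were scaled with edgeR's TMM factors, and 2 was the prior count of log2 CPM values. Genes with at least 10 counts in total over 11 mice entered edgeR's quasi-likelihood F-test (edgeR 4.0.16, R 4.3.3, robust). The covariate was the score on the first principal component (PC1, 20.2% of the variance of DESeq2's variance-stabilized counts, blind to groups). DESeq2 (1.42.0) was run beside it, with the likelihood ratio test for the 3 groups and the measures. Pairwise comparisons in DESeq2 used its Wald test. It gave no adjusted p for up to 2 members. Behavior measures were fitted without PC1 as standardized numbers. Benjamini-Hochberg adjustment ran over all genes, with a threshold of 0.05. The edgeR procedures were run on simulated counts, drawn independently for each gene with the group labels fixed. Such counts hold neither co-variation of genes nor groups cut from expression, so they cannot show that the group p-values hold here. All libraries were sequenced in 1 run, and no other batch is named. With 1 library per mouse, p-values measure the spread between mice, technical spread included.

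The members and lists were chosen with earlier results of these data known. Members were named as the 3 with the highest level per kb in each cluster, the 5 C-types, the 5 with the smallest p of the 3-group test, the largest rise and fall per cluster at a mean of at least 1 CPM, and the smallest p per behavior measure. Of the wider lists, the gene with the smallest p was named, and 1 further list is not reported here. Members outside this rule (such as Pcdha8, Pcdhb1, Pcdhb12, Pcdhgb7 and Ctcf) mark the ends of a range or were chosen after their values were seen. The alternatives covered the size factors, count filter, robust option, covariate, coding of the groups, ranks, mouse 5, the test and each mouse left out.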

Additional observations from a re-analysis of the deposited data

Results flagged for a closer look

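Among the 18 named members and the 3 cluster sums, 42 sets of 4 mice (anxious or more anxious) were searched for a mouse far from the rest of its group, and 3 such values were found, where chance gives about 1 in 20. Pcdhb17 was 12.1 CPM in the anxious mouse 8, against 14.8 to 14.9 CPM in the other anxious mice. Pcdhga7 was 9.80 CPM in the anxious mouse 4, against 13.1 to 13.6 CPM in the others of its group. Pcdhga7 was also 17.2 CPM in the more anxious mouse 6, against 11.9 to 12.7 CPM in the others. Mouse 6 also had the longest time on the open arms of the 11 mice.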

How the results depend on the processing

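The count of members called by adjusted p stayed at 0 for the 4 group comparisons and 7 measures under every alternative run, except for DESeq2 with the ratio at 3 min, which gave 1. The log2 ratio of the gamma sums moved beyond the pooled SD in more against less anxious mice without the C-types (-0.14) and as a median over members (-0.17). In anxious against less anxious mice it moved to -0.20 without the C-types, -0.20 without Pcdhgc4 and -0.21 as a median over members. Each of these alternatives drops or down-weights Pcdhgc4, alone or with other members, and the reason for the moves was not tested. The C-type share of gamma fell from 68.6% to 37.5% without Pcdhgc4, an alternative added after seeing the data, as was leaving out mice for the correlations. The median r within gamma ran from 0.54 to 0.67 with 1 mouse left out.

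Of the named members, Pcdha4 turned to -0.10 without the covariate in more against less anxious mice. With 1 mouse left out, values with a turned sign ran from -0.15 to 0.14, over Pcdha3 (-0.0038 without mouse 7), Pcdha4 (-0.0158, -0.15 and -0.11 without mouse 2, 7 and 12), Pcdhac1 (0.0186, 0.14, 0.10 and 0.0078 without mouse 2, 7, 10 and 12), Pcdhac2 (0.0852), Pcdhgc3 (0.0265) and Pcdhgc5 (0.0301) without mouse 7, and Pcdhb15 (0.0083) without mouse 12. Unadjusted counts moved more: with 1 mouse left out, 4 to 11 members passed for time on the open arms, 4 to 9 for total entries and 4 to 17 for the ratio at 3 min, 0 to 3 across the 3 groups and in more against less anxious mice (0 without mouse 7), and 0 to 7 in anxious against less anxious mice (7 without mouse 11, 6 without mouse 3, 0 without mouse 7). The causes were not tested. No paired analysis was possible because the labels give no replicate numbers that groups share. With 3 or 4 mice per group and SEs of 0.11 or more on the log2 scale, small differences were not detectable, and intervals for the split of shared exon reads could not be had from gene totals.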

Other observations

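Mouse 5, which has no group, had a summed alpha level of 171 CPM, above the range of the other 11 mice on the same scale (123 to 155 CPM), while its beta and gamma sums (135 and 652 CPM) lay inside theirs. Of the 57 members, 6 stood above the range of the other mice in mouse 5, 4 below and 47 inside it. Above were Pcdha10 (14.9 CPM against 3.52 to 7.13), Pcdha6 (12.6 against 4.34 to 10.98), the C-type Pcdhac1 (6.999 against 2.86 to 5.53), Pcdhb11 (5.78 against 3.65 to 5.63), Pcdhb13 (6.12 against 3.31 to 6.10) and Pcdhb17 (17.2 against 12.1 to 15.9). Below were Pcdha1 (1.64 CPM against 1.86 to 4.11), Pcdha7 (4.595 against 4.67 to 9.26), Pcdhb1 (0.0609 against 0.0835 to 0.363) and Pcdhb5 (3.56 against 3.94 to 6.01). All of these values were scaled with TMM factors of all 12 mice.

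Gm38182, a noncoding transcript on the same strand as the gamma genes that overlaps their constant exons, had 47 estimated counts in mouse 5 and between 176 and 802 in the other mice. Reads of this transcript and of the gamma genes can fit the same exons. Read-through genes that span the clusters had few counts over the 11 mice, 0 for Gm42416, 18 for Gm37013 and 11 for Gm37388.

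The 57 members held 0.0937% of the squared loadings of PC2 as computed here (14.7% of the variance) and made up 0.165% of the genes that entered that analysis. Their share of this component was thus below their share of genes. The study cut its groups from its own PC2, and whether the component computed here gives the same groups was not tested.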
